A study of Arabidopsis thaliana with 6 samples.

Results

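The genes described here are the abundant nuclear genes of Arabidopsis thaliana whose annotation speaks of a ribosomal protein. They were taken from a table of 19955 genes as the nuclear loci whose description holds the words "ribosomal protein", does not name a chloroplast, plastid, mitochondrion or kinase, and whose level in WT was an FPKM of at least 50. FPKM counts fragments relative to transcript length and to library total. Of 206 genes with those words, 127 reached that level and 79 did not. The genes were thus chosen by their FPKM in WT, and every ratio to WT below is a description without a test of its own.

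RNA came from whole seedlings of the Col-0 ecotype, in 3 libraries of the mir163 mutant and 3 libraries of WT. Both genotypes were 7 days old, had no treatment and were grown at 22 °C with 16 h of light and 8 h of dark. The mir163 mutant is affected at MIR163, the gene of a microRNA, and the labels name neither its allele nor how many plants made up a library. The table holds 1 FPKM per genotype, so no spread between libraries can be given for any value, and depth is unknown.

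A ribosome is built from a small subunit, which reads the mRNA, and a large subunit, which joins the amino acids. Plant cells hold cytosolic ribosomes of the eukaryotic type and plastid and mitochondrial ribosomes of the bacterial type. Most proteins of all of these are encoded in the nucleus, and each cytosolic ribosomal protein is usually encoded by several near-identical genes. Making ribosomes takes up much of the transcription of dividing and growing cells, and plant promoters of these genes are known for short elements called site II and telo-box.

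The name of the set held only in part. By the RefSeq notes and protein families, 94 of the 127 genes were assigned to the cytosolic ribosome, 35 to the small and 59 to the large subunit. A family name cannot tell a subunit from a related protein that is not one. Among the 59, AT1G25260 was only L10/P0-like. AT2G44860 and AT1G80750 did not group by protein identity with the other L24e and L7 genes. The counts of subunit genes here and below may thus include genes that are not subunits. A further 21 belong to the plastid ribosome, with 8 in its small and 13 in its large subunit, although their descriptions do not say so. Another 4 are of the bacterial type without a plastid assignment, 3 in a large and 1 in a small subunit. The remaining 8 are not subunits of a ribosome. They include LOS1, which is translation elongation factor 2, AT5G19510, a subunit of elongation factor 1B, AT1G68660, a relative of the protease adaptor ClpS, and AT5G06360, a homologue of NSA2, a ribosome assembly factor of yeast. The 127 genes lie on all nuclear chromosomes, with 27 on chromosome 1, 21 on chromosome 2, 33 on chromosome 3, 16 on chromosome 4 and 30 on chromosome 5.

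Promoter sequence was not used to choose the genes. The 250 bases before the annotated gene start were searched on both strands for TGGGCC or TGGGCT, the forms of site II, for AAACCCTA, the telo-box, and for TATAAA, the TATA box. Where site II matches on opposite strands overlap, each was counted. Site II and the telo-box were searched separately, and matches of the 2 elements sharing a base were not excluded. A site II stood in 64 of 94 cytosolic promoters, that is 68.1%, against 25.4% of 3031 other abundant protein-coding genes and 19.2% of all 27443 protein-coding nuclear genes. The share was 68.6% for the small and 67.8% for the large subunit. Among plastid ribosomal protein genes it was 33.3%, or 7 of 21. At least 2 matches of site II stood in 50% of cytosolic promoters, against 17.7% of the other abundant ones and 12% of all. The other abundant genes, here and below, include 126 genes with a ribosomal RefSeq note or product that the description words did not choose.

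The telo-box was found in 20 of 94 cytosolic promoters, or 21.3%, and in 1 of 21 plastid promoters, or 4.76%, against 3.3% of other abundant genes and 4.49% of all. Both elements together stood in 16% of cytosolic promoters, against 1.68% of other abundant ones and 1.36% of all. The TATA box was about as common in cytosolic promoters (47.9%) as in other abundant ones (46.5%) and in all (47.3%). Site II matches of the cytosolic genes lay at a median of 54 bases before the start and telo-boxes at 19, against 81 and 92 over all protein-coding genes. These are counts of matches to short words and are not evidence that a factor binds there.

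**Figure D1:**
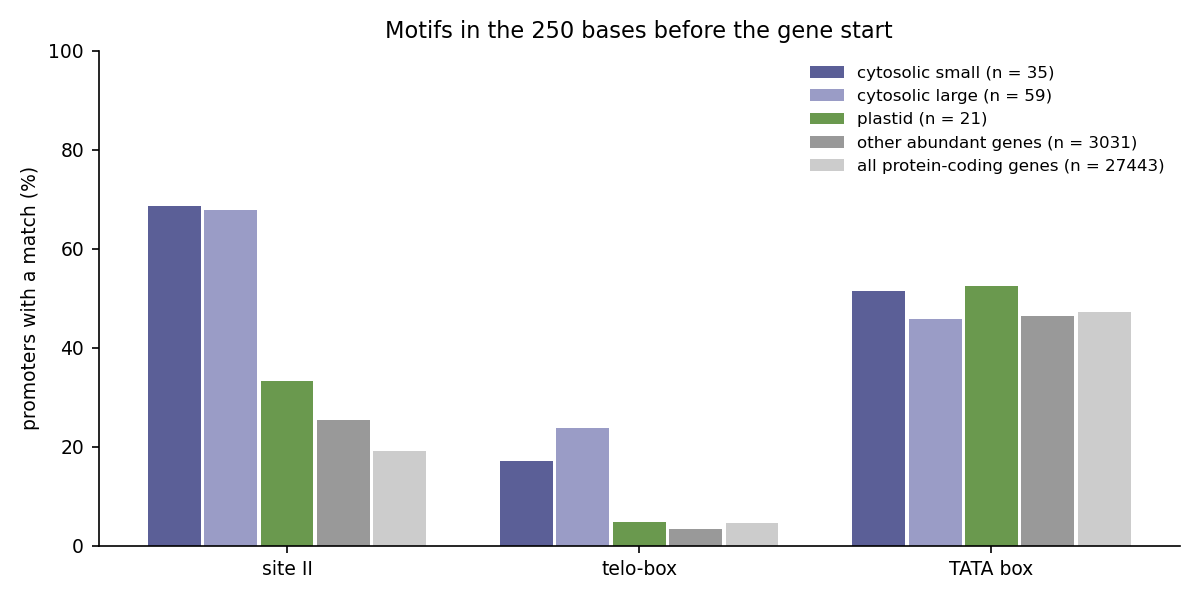
Share of promoters (%, vertical axis) with at least 1 match of each element within 250 bases before the gene start, for cytosolic small subunit, cytosolic large subunit and plastid ribosomal protein genes, other abundant nuclear genes and all protein-coding genes. Site II and the telo-box were more common in the cytosolic classes (68.6% and 67.8% for site II) than in other abundant genes (25.4%), while the TATA box ranged from 45.8% to 52.4% over the classes.

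The following promoters show these elements. They are the promoters of the most abundant cytosolic small and large subunit genes, of the most abundant cytosolic gene with both elements, of the cytosolic gene with the lowest ratio of mir163 to WT, and of the most abundant plastid ribosomal protein gene. Each runs 5′ to 3′ on the strand of its gene up to the base before the gene start, in the RefSeq TAIR10.1 genome, and capitals mark site II and telo-box matches.
AT5G20290, protein S8e, chr5:6853107-6853356, minus strand: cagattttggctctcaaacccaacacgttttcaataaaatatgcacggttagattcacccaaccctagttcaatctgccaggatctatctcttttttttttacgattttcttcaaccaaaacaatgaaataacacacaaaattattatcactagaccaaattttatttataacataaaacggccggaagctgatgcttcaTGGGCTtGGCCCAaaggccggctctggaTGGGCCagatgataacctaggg
AT3G60245, protein L37ae, chr3:22268438-22268687, plus strand: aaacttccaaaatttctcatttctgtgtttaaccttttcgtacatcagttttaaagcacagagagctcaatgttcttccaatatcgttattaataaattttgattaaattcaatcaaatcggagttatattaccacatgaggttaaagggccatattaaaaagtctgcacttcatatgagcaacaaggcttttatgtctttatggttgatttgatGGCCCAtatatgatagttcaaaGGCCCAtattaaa
AT4G27090, protein L14, chr4:13595253-13595502, minus strand: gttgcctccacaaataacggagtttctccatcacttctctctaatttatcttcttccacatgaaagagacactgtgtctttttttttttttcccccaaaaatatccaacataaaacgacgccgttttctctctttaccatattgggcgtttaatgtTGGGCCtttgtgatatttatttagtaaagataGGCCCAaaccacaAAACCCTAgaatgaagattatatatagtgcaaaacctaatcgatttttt
AT3G61110, protein S27e, chr3:22611271-22611520, plus strand: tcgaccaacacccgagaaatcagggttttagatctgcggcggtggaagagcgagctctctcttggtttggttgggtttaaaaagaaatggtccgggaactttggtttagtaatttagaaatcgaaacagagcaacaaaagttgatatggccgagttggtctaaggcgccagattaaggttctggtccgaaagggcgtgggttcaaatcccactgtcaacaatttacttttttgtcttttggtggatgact
AT4G34620, plastid protein S16, chr4:16536225-16536474, minus strand: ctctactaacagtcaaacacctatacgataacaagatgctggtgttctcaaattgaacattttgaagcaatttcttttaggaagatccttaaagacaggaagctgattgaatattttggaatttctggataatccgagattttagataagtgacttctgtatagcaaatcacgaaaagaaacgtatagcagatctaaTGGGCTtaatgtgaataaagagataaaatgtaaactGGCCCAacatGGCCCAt

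AT5G20290 carried 3 site II matches, the nearest 17 bases before the start, with a pair on opposite strands almost touching. AT3G60245 carried 2, both on the reverse strand. AT4G27090 carried 2 site II matches, the nearest 57 bases before the start, and 1 telo-box 42 bases before it. AT3G61110 carried neither element in this window, and the plastid gene AT4G34620 carried 3 site II matches. Within the cytosolic class, the 64 genes with a site II had a median FPKM of 384 in mir163 and 369 in WT. The 30 genes without one had 287 in mir163 and 303 in WT. Median log2 ratios of mir163 to WT were 0.03 with a site II and 0.03 without. They were 0.06 in the 20 genes with a telo-box and 0.02 in the 74 without, and 0.09 in the 15 genes with both elements and 0.03 in the other 79.

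The question put to the expression table was whether ribosomal protein transcripts stood at other levels in seedlings of the mutant. Their levels were nearly the same in both genotypes. The median FPKM over the 127 genes was 333 in mir163 and 328 in WT, and the sum was 45759 in mir163 and 44781 in WT. The interquartile range of the log2 ratios, mir163 over WT, ran from -0.04 to 0.12, and the full range from -0.28 to 0.34. By the authors' p-values with Benjamini-Hochberg adjustment over all 19264 tested genes, 0 of 127 genes passed a threshold of 0.05, and 0% of all tested genes passed it in either direction. Without adjustment, 0 of the 127 had a p under 0.05, against 192 or 0.997% of all tested genes. The lowest unadjusted p among the 127 was 0.488 in the authors' deposited table. That table also gave the mutated locus MIR163 itself a p of 0.180, at an FPKM of 0.0726 in mir163 and 20.5 in WT, so large ratios too could miss the threshold.

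The FPKM was higher in mir163 for 78 of the 127 genes and lower for 49, where 51.3% of all tested genes were higher and 48.7% lower. That is 61.4% of the set, and 46.8% of 3077 other abundant nuclear genes were higher. The median log2 ratio was 0.04 for the set, 0.01 for all tested genes and -0.02 for the other abundant genes. The split depends on the scaling between genotypes. The FPKM summed over the table to 1036970 in mir163 and 1136682 in WT, and scaling both to equal sums, which gives TPM, raised every log2 ratio alike and put the median of all tested genes at 0.14. The set then stood at 0.18, with 119 genes higher and 8 lower, against 74.6% of all tested genes higher. Quantile normalization gave 88 higher and 39 lower. Relative to the median of all tested genes, the set was 0.04 higher before and after equal sums and 0.07 higher after quantile normalization.

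The ratios also lay closer together than those of other genes, a description of these pooled values. The width of the interquartile range was 0.17 on the log2 scale for the set, against 0.28 for other abundant nuclear genes and 0.28 for all tested genes. Only 1 of the 127 differed between genotypes by more than 1.25-fold, or 0.787%, against 19.4% of all tested genes and 17.9% of other abundant ones. The set is much more abundant than the comparison genes, whose median FPKM was 95.6 in mir163 and 95.9 in WT, and the part of abundance in this difference was not tested. The order of levels within the set was nearly identical in the genotypes, with a Spearman rho of 0.989 and a Pearson r of 0.994 on log2 levels over 127 genes. These genes share the same pooled libraries and lengths in both columns.

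**Figure D2:**
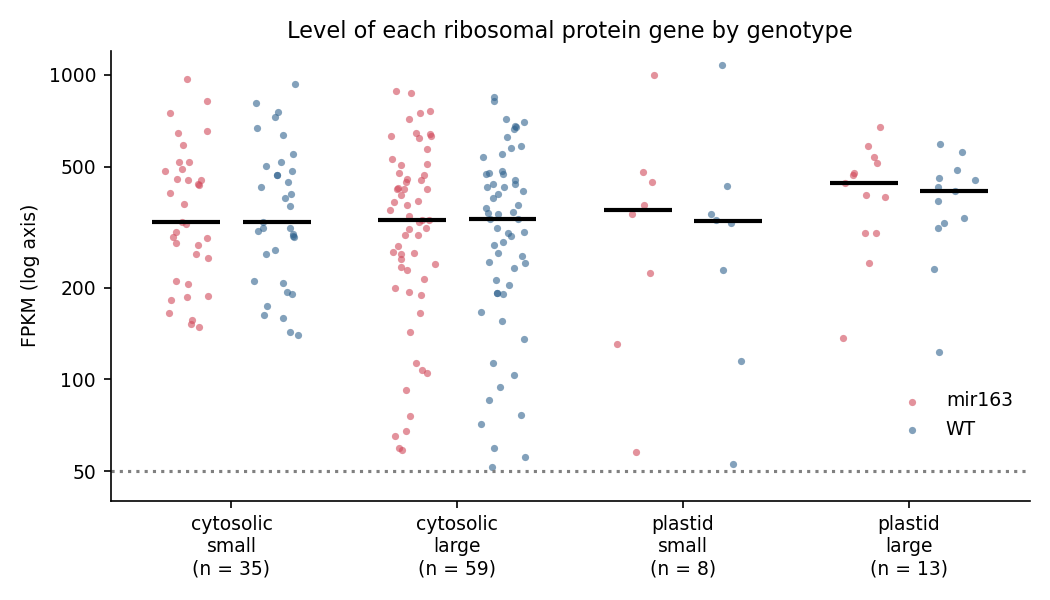
FPKM of each gene (log axis) in mir163 (left of each pair) and WT (right), by ribosome and subunit, with a bar at the median and a dotted line at the minimum of 50 that was set in WT. Each point is 1 gene; medians of cytosolic small subunit genes were 329 in mir163 and 328 in WT, and of cytosolic large subunit genes 335 in mir163 and 337 in WT.

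The highest level in both genotypes belonged to the plastid gene SSR16 (AT4G34620, S16), with an FPKM of 998 in mir163 and 1080 in WT. The most abundant cytosolic gene was AT5G20290, the small subunit protein S8e, with 971 in mir163 and 937 in WT. It was followed by AT3G60245, the large subunit protein L37ae, with 883 in mir163 and 844 in WT. For all 3 the order was the same in both genotypes.

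AT4G27090, which encodes L14, had 874 in mir163 and 824 in WT. AT5G18380, which encodes S16, had 822 in mir163 and 805 in WT. AT5G02960, which encodes S23, a protein at the decoding centre where codons are read, had 749 in mir163 and 753 in WT. This last gene was almost equal in the genotypes, with a log2 ratio of -0.01.

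AT3G44010, which encodes the very short protein S29e, had 653 in mir163 and 726 in WT, the lowest ratio among the 10 most abundant genes. AT1G67430, for L17, had 759 in mir163 and 717 in WT, and AT2G34480, for L18ae, had 715 in mir163 and 698 in WT. SAC52 (AT1G14320), for L10, had 643 in mir163 and 677 in WT. Of these 10 genes, 6 were higher in mir163 and 4 were lower. From the highest to the lowest gene, levels spanned 18.2-fold in mir163 and 20.99-fold in WT.

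At the other end, the least abundant genes that entered were AT3G02190 with 58.6 in mir163 and 51.5 in WT, RFC3 with 57.7 in mir163 and 52.9 in WT, and AT1G53560 with 54.8 in mir163 and 55.5 in WT. Just below the minimum were AT5G56940 with 59.0 in mir163 and 49.3 in WT, AT4G34555 with 48.8 in mir163 and 48.5 in WT, and AT3G01790 with 47.7 in mir163 and 48.1 in WT. AT5G56940 was thus above 50 in mir163 only. Of the 79 genes below the minimum, 60 had a higher and 19 a lower FPKM in mir163, with a median log2 ratio of 0.12. That is 75.9% higher, against 51.3% of all tested genes. These 79 were picked by a low FPKM in WT, which favours higher ratios to WT, and the part of that choice was not tested.

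The subunits of the cytosolic ribosome differed little in level and slightly in ratio. The 35 small subunit genes had a median FPKM of 329 in mir163 and 328 in WT, and the 59 large subunit genes 335 in mir163 and 337 in WT. Of the small subunit genes, 16 were higher in mir163 and 19 lower, with a median log2 ratio of -0.0020 and a range from -0.28 to 0.22. Of the large subunit genes, 40 were higher and 19 lower, with a median of 0.07 and a range from -0.23 to 0.27. The difference of these medians, large minus small, was 0.07 as deposited, after median-ratio scaling and after equal sums, and 0.07 after quantile normalization. Equal sums put 30 of 35 small and 58 of 59 large subunit genes higher, and quantile normalization 21 of 35 and 43 of 59. Genes of a subunit are not replicates, and this difference was not tested. With organelle genes included, 23 of 44 small subunit genes were higher, with a median of 0.01, and 52 of 75 large subunit genes, with a median of 0.07.

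Within the large subunit, the stalk is formed by P0 and the acidic P proteins and recruits the factors that drive translation. All 6 of its genes in the set were lower in mir163 as deposited and after quantile normalization, with log2 ratios from -0.13 to -0.01 and a median of -0.09, and all 6 were higher after equal sums, with ratios from 0.0019 to 0.12. P0 (AT3G09200) had 505 in mir163 and 536 in WT. Among the acidic P genes, AT5G47700 had 423 in mir163 and 452 in WT, and AT2G27720 had 361 in mir163 and 395 in WT. AT2G27710, the neighbour of AT2G27720 with no other protein-coding gene between them, had 298 in mir163 and 301 in WT. The others were AT5G57290 with 260 in mir163 and 275 in WT, and AT4G00810 with 239 in mir163 and 254 in WT. Paralogues outside the set that grouped with these genes by protein identity did not all go the same way as deposited. Stalk genes outside the set that fell in no such group are not covered here. The P0 paralogue AT3G11250 was higher, with 49.4 in mir163 and 46.4 in WT. The P0 paralogue AT2G40010 and the grouped acidic P genes AT1G01100 and AT4G25890 were lower. The stalk was examined as a group for its known role, and 6 genes of like direction carry no p here. The 5 acidic P proteins also stood apart in composition: lysine and arginine made up a median of 7.50% of residues, against 20.6% over the 94 cytosolic proteins.

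The lowest ratio was that of RS27A (AT3G61110), which encodes S27e. It had 452 in mir163 and 548 in WT, a log2 ratio of -0.28. AT4G31985 encodes L39e, a short protein of 51 residues that lines the tunnel through which new proteins leave. It had 312 in mir163 and 366 in WT, a log2 ratio of -0.23, whereas the other L39e gene of the set, AT3G02190, had a log2 ratio of 0.19. Outside the set, the L39e gene AT2G25210 had 188 in mir163 and 215 in WT, a log2 ratio of -0.19. AT5G27700, for S21e of 82 residues, had 250 in mir163 and 293 in WT, a log2 ratio of -0.23. AT3G11510, for S14, had 280 in mir163 and 313 in WT, a log2 ratio of -0.16. The only one of the 5 lowest outside the ribosome was the ClpS relative AT1G68660, with 146 in mir163 and 171 in WT and a log2 ratio of -0.23.

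The highest ratios included 3 plastid proteins. PSRP3/1 (AT1G68590), a plastid-specific protein of the small subunit, had 444 in mir163 and 350 in WT, a log2 ratio of 0.34 and the only one past 1.25-fold. The L12 genes RPL12-C (AT3G27850) and RPL12-A (AT3G27830) encode the stalk protein of the bacterial-type ribosome. RPL12-C had 585 in mir163 and 487 in WT, and RPL12-A had 405 in mir163 and 338 in WT, with log2 ratios of 0.27 and 0.26. They lie close together on chromosome 3 and encode proteins with 89.0% identity, so reads could be shared between them. The cytosolic genes among the 5 highest were AT3G28900, for L34e, with 229 in mir163 and 190 in WT and a log2 ratio of 0.27, and RPS6, with 519 in mir163 and 445 in WT and a log2 ratio of 0.22.

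RPS6 (AT4G31700) encodes S6e, the substrate of the S6 kinases that act below the growth regulator TOR. Its paralogue in the table stood higher as well, so that the pair summed to 970 in mir163 and 869 in WT. None of these extremes passed the adjusted threshold, where every one of the 127 had an adjusted p of 0.9996 by Benjamini-Hochberg.

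The plastid ribosomal protein genes were mostly higher in mir163 under every scaling. Of 21 genes, 16 were higher and 5 lower as deposited, with a median log2 ratio of 0.13, 18 were higher after quantile normalization and 21 after equal sums, and their median FPKM was 405 in mir163 and 350 in WT. The small subunit part had 6 of 8 genes higher and the large subunit part 10 of 13. Besides those named, AT3G54210, for L17, had 673 in mir163 and 591 in WT, and AT2G43030, for L3, had 513 in mir163 and 450 in WT. EMB3137, for S13, had 480 in mir163 and 430 in WT. On the lower side were SSR16, AT1G29070 for L34 with 303 in mir163 and 326 in WT, PRPL35 with 536 in mir163 and 556 in WT, EMB3126 for L1 with 303 in mir163 and 314 in WT, and RPS1 with 223 in mir163 and 229 in WT. A separate group of 14 abundant nuclear genes, left out because their descriptions name the plastid, had 12 higher and 2 lower and a median of 0.09.

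Of the 4 other genes of the bacterial type, 3 were higher in mir163. The exception was AT3G13882, for L34, with 71.0 in mir163 and 79.1 in WT. Of the 8 genes outside the ribosome, 3 were higher and 5 lower, with a median of -0.03, and 7 were higher after equal sums. LOS1, elongation factor 2, had 571 in mir163 and 596 in WT. The elongation factor 1B gene AT5G19510 had 492 in mir163 and 513 in WT. The 3 that were higher were the NSA2 homologue and both genes of the Nhp2 family, AT5G08180 and AT5G20160, whose yeast namesake acts in maturing ribosomal RNA. AT5G08180 had 144 in mir163 and 124 in WT.

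**Figure D3:**
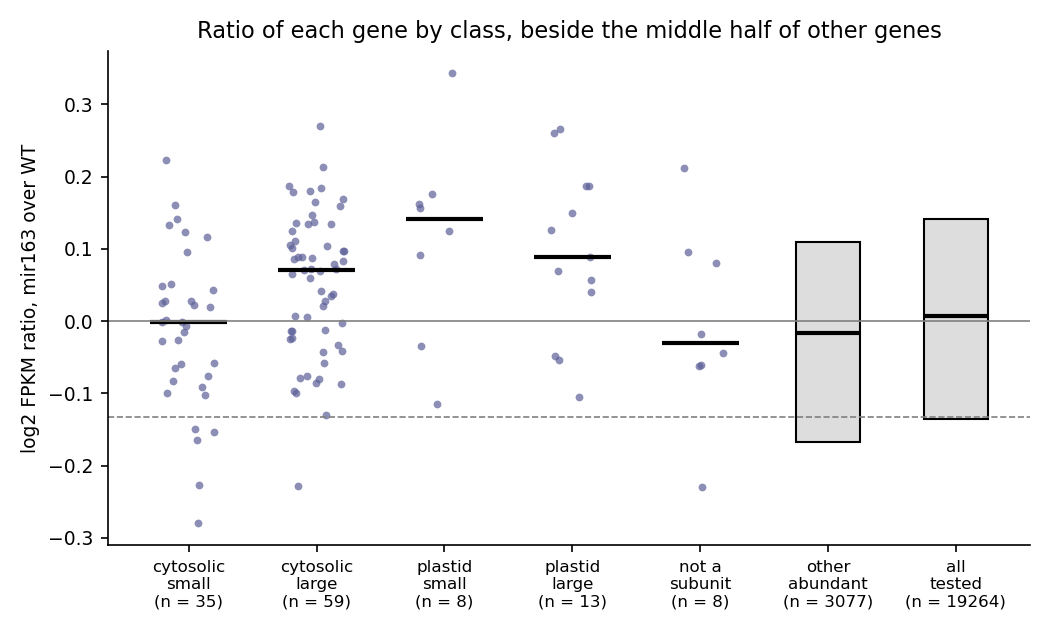
Log2 FPKM ratio of mir163 over WT for each gene (points) by class, with a bar at the median, and for other genes the interquartile range (box) and median (bar). Points below the solid line were lower in mir163; after scaling to equal sums the dashed line takes its place. Cytosolic large subunit genes centre on 0.07, small subunit genes on -0.0020, and all points lie between -0.28 and 0.34.

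Among the classes of the set, ratio and length were related in the cytosolic small subunit. They were also related among genes outside the set with a ribosomal RefSeq note or product, which were not split by subunit. Across the 35 cytosolic small subunit genes, the log2 ratio of mir163 to WT had a Pearson r of 0.52 with the log of coding length and a Spearman rho of 0.48. Of the 5 with fewer than 300 coding bases, 1 was higher in mir163 and 4 were lower, with a median of -0.15, and after equal sums 2 were higher and 3 lower. Of the 8 with 600 to 900 coding bases, 5 were higher and 3 lower, with a median of 0.05. Across the 59 cytosolic large subunit genes r was 0.03, across 21 plastid genes 0.03, and across 3031 other abundant genes -0.02. The 126 abundant nuclear genes with a ribosomal RefSeq note or product that the description words did not choose had an r of 0.54. It was 0.43 over 121 without the 5 genes of the shortest protein, L41. These are correlations across genes, which share their libraries and are not independent, so they are descriptions. With the log of transcript length in place of coding length, r was 0.39 for the cytosolic small and 0.17 for the cytosolic large subunit genes. It was 0.09 for the plastid genes, -0.01 for the other abundant genes and 0.48 for the 126 genes. FPKM divides by transcript length, and the part of that step in the relation was not tested.

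**Figure D4:**
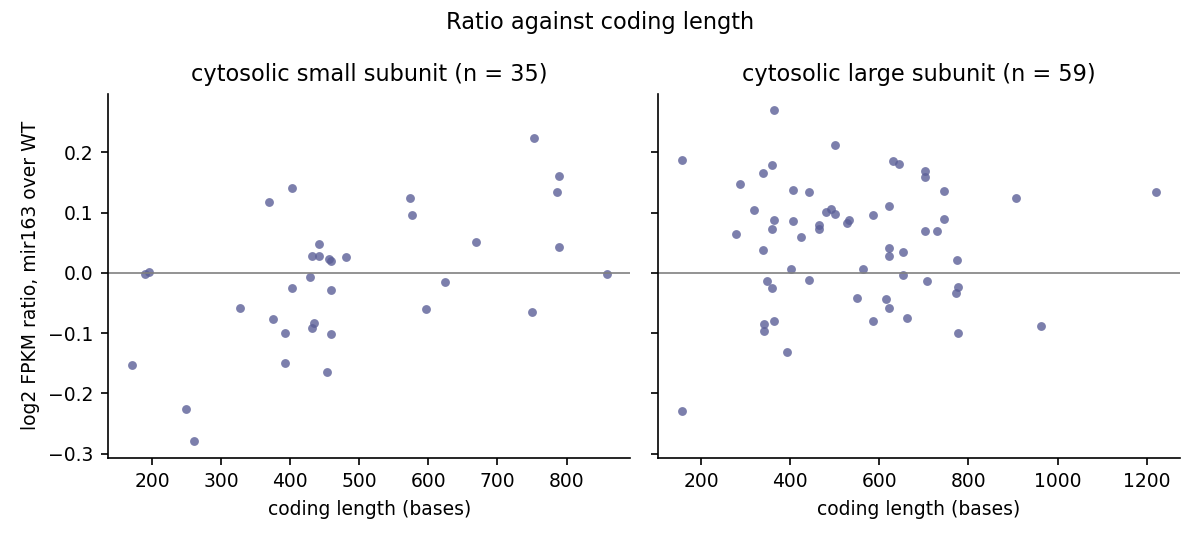
Log2 FPKM ratio of mir163 over WT (vertical axis) against coding length in bases (horizontal axis) for cytosolic small subunit genes (left panel, 35 genes) and large subunit genes (right panel, 59 genes). Points of the small subunit run upward, with r of 0.52, and the lowest are S27e and S21e at log2 ratios of -0.28 and -0.23, while the short S30 and S28 genes lie near 0; points of the large subunit show no slope, with r of 0.03.

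Most cytosolic ribosomal proteins are encoded by several genes, and their shares of the summed FPKM do not depend on a single scaling factor per genotype. Shares were computed on FPKM as deposited and not after quantile normalization, which moves genes unequally. Proteins were grouped where they were at least 70% identical over at least 80% of the longer one, which gave 62 groups with a cytosolic member and 159 genes in the table, 89 of them in the set. Paralogues that the description words missed were included. The same gene led its group in both genotypes in 55 of 62 groups. The gene that led its group in WT held a median share of 56.2% in mir163 and 57.5% in WT. That choice by level in WT favours a higher share in WT. In every one of the 62 groups, no gene's share moved by 5 percentage points or more, and the median over groups of the largest shift was 1.29 points. Summed over paralogues, 30 groups were higher in mir163 and 32 lower, with log2 ratios from -0.19 to 0.19 and a median of -0.01. By subunit, 11 of 28 small and 19 of 34 large subunit groups were higher, with medians of -0.02 and 0.06.

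The 5 cytosolic genes without a paralogue at these limits are in no group, and their FPKM in WT ran from 59.5 to 844. Groups of the small subunit ranged from 502 to 1295 in WT, a span of 2.58-fold, and groups of the large subunit from 196 to 1248, a span of 6.37-fold. With the 5 ungrouped genes counted as sums of their own, the span over both subunits was 21.8-fold. Its low end was AT1G80750 at 59.5, labelled L7, while the L7 group itself summed to 548 in WT. That span therefore depends on the grouping limits and is not one over separate proteins. The highest sum in WT was that of S29e, with 1137 in mir163 and 1295 in WT. AT3G44010 led it with 57.5% in mir163 and 56.1% in WT. AT4G33865 held 33.8% in mir163 and 35.1% in WT, and AT3G43980 held 8.77% in mir163 and 8.81% in WT. All 3 S29e genes were lower in mir163, with log2 ratios from -0.24 to -0.15, also after quantile normalization and equal sums, and they encode identical proteins, so fragments could be shared between them.

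The acidic P group led by AT1G01100 followed, with a sum of 1145 in mir163 and 1248 in WT. AT1G01100 held 42.2% in mir163 and 43.4% in WT, AT5G47700 held 36.9% in mir163 and 36.2% in WT, and AT4G00810 held 20.9% in mir163 and 20.4% in WT. The L23 group summed to 1159 in mir163, the highest sum in that genotype, and 1196 in WT, and AT3G04400 held 61.1% of it in mir163 and 63.4% in WT. Its paralogues were AT1G04480, with 21.6% in mir163 and 20.5% in WT, and AT2G33370, with 17.3% in mir163 and 16.1% in WT. These 3 proteins were identical.

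The S27e group held the largest shift of all. It summed to 1052 in mir163 and 1148 in WT. AT3G61110 held 42.9% in mir163 and 47.8% in WT, while AT5G47930 held 49.9% in mir163 and 45.02% in WT. The leading gene thus changed, by a shift of 4.87 points. AT2G45710 held 7.17% in mir163 and 7.23% in WT. In the S3 group, whose protein sits where mRNA enters the ribosome, AT2G31610 held 37.1% in mir163 and 35.3% in WT, and AT3G53870 held 36.1% in mir163 and 37.03% in WT. AT5G35530 held 26.8% in mir163 and 27.7% in WT, so 3 genes shared this group almost evenly.

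The other extreme was a single gene carrying nearly all of its group. AT5G20290 held 99.6% of the S8e group in mir163 and 99.7% in WT. AT5G02960 held 99.7% of the S23 group in mir163 and in WT. Among the 5 remaining groups whose leading gene differed between genotypes, was L4, where AT3G09630 held 49.7% in mir163 and 50.5% in WT.

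**Figure D5:**
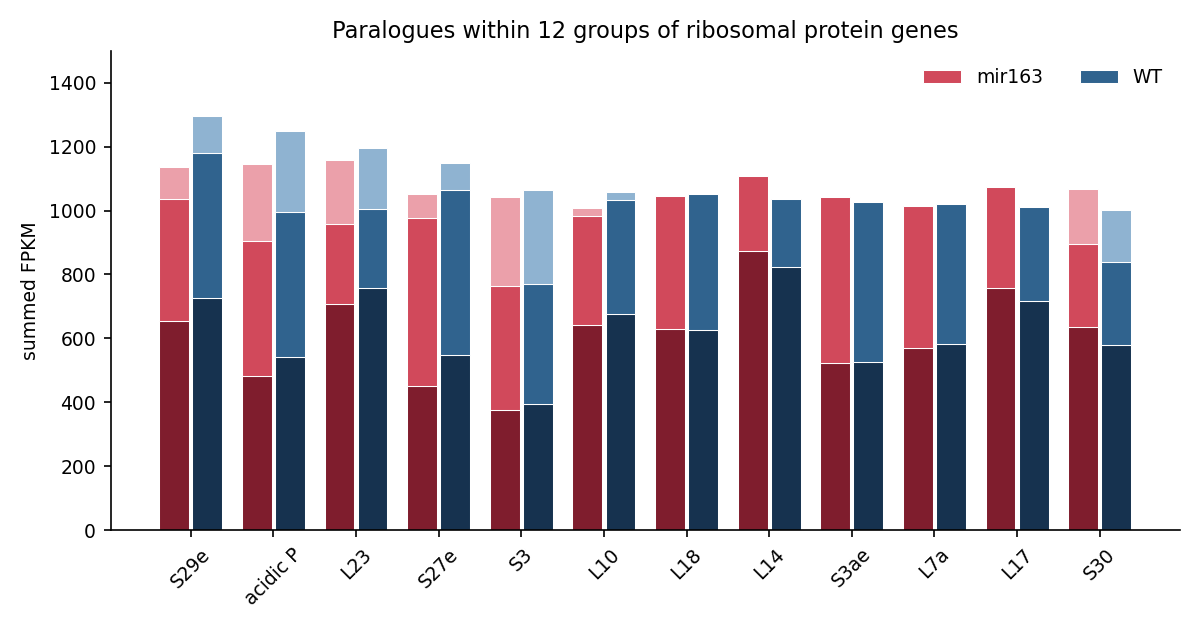
Summed FPKM (vertical axis) of the 12 groups of cytosolic paralogues with the highest sums in WT, in mir163 (left bar, red) and WT (right bar, blue). Stacked segments are single genes in the order of their level in WT, darkest first; the split of each bar is nearly the same in both genotypes, with the largest change in S27e (42.9% in mir163 and 47.8% in WT for the darkest segment).

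Other genes of the translation apparatus, taken from 4 lists, also differed little, and 0 of 44 passed the adjusted threshold by Benjamini-Hochberg. Of 11 elongation factor genes, 7 were higher in mir163 and 4 lower, with a median log2 ratio of 0.03, and 2 of them also belong to the set above. AT5G60390, for elongation factor 1A, had 1640 in mir163 and 1542 in WT. Of 15 initiation genes, 12 were higher and 3 lower, with a median of 0.09, but the 2 most abundant were lower. FBR12, for initiation factor 5A, had 1184 in mir163 and 1273 in WT, and EIF4A1, an RNA helicase, had 385 in mir163 and 466 in WT.

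Of 13 ribosome biogenesis genes, 11 were higher and 2 lower, with a median of 0.13. NUC-L1, a nucleolin that acts at ribosomal RNA genes, had 251 in mir163 and 221 in WT. FIB1, a fibrillarin that methylates ribosomal RNA, had 212 in mir163 and 258 in WT. All 5 TOR and S6 kinase genes were lower, with a median of -0.12, and after equal sums 3 were higher and 2 lower. The S6 kinase gene PK1 (AT3G08730) had 84.7 in mir163 and 101 in WT, and LST8-1, a partner of TOR, had 38.1 in mir163 and 39.7 in WT. After equal sums, medians were 0.16 for elongation, 0.22 for initiation and 0.26 for biogenesis genes.

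Markers of cell types gave these values beside the ratios of the ribosomal protein genes. All 5 markers of dividing cells were higher in mir163, with a median log2 ratio of 0.20 and a summed FPKM of 71.4 in mir163 and 54.3 in WT. PCNA1 had 25.4 in mir163 and 18.1 in WT, and CYCD3;1 had 29.04 in mir163 and 20.9 in WT. All 3 mesophyll markers were lower, though 2 were higher after quantile normalization, with a sum of 29428 in mir163 and 34561 in WT, led by RBCS1A with 15342 in mir163 and 18310 in WT. Of 3 root markers, 1 was higher and 2 lower, reversed to 2 and 1 after quantile normalization and equal sums, with a sum of 148 in mir163 and 154 in WT. No marker was at 0 in either genotype, and none passed the adjusted threshold. Whole seedlings mix these cell types, so more cells of a type and more RNA per cell cannot be told apart. The part of cell makeup in the ratios of the ribosomal protein genes was not tested.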

How the data were processed

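The deposited table gives, per the file headers, 1 FPKM per genotype, the log2 fold change of mir163 over WT and a p-value. The authors' log2 fold changes equal the log2 ratio of the FPKM columns, and the authors' p-values are unadjusted. Per the submitters' processing notes, bcl2fastq 2.17.1.14, TopHat, Cufflinks and the build TAIR10 were used. Per the labels' protocols, Trizol was used for extraction and an NEBNext Ultra kit for the libraries. Not given in the sources used here are how libraries were combined, how fragments matching several genes were assigned, the correction for short transcripts, strand and the test behind the p-values. Near-identical paralogues and overlapping genes are therefore uncertain. Whether the replicates, called biological in the labels, were separate cultures is not stated.

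A per-library limma model of log2(FPKM + 1) was planned but could not be fitted to 1 value per genotype. The authors' p-values were instead adjusted by Benjamini-Hochberg over the 19264 genes with an FPKM of at least 1 in a genotype, at a threshold of 0.05, and checked on simulated data. Ratios are of plain FPKM. Ribosome and subunit of each gene were assigned by hand from RefSeq notes and protein families, and all 127 matched RefSeq. Where a note gave no place, the assignment rests on the family being of the eukaryotic or bacterial type. Promoter sequence, gene starts and coding lengths came from RefSeq TAIR10.1. Protein identity came from blastp 2.17.0. Work was done in Python 3.11.15 with pandas 2.3.3 and scipy 1.17.1.

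Genes named in the text are the 10 highest in WT, the 5 highest and 5 lowest ratios, the 3 on each side of the minimum, paralogues in the 5 groups with the highest sums, stalk genes, members outside the cytosolic ribosome and the 2 most abundant of each list. Single genes in the passages on plastid genes and on groups led by 1 gene were named after their values were seen. The gene set and the lists were chosen with earlier results of these data known. Alternatives tried were other scalings, pseudocounts, filters and minimum levels.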

Additional observations from a re-analysis of the deposited data

How the results depend on the processing

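No paired analysis was possible because the table holds 1 value per genotype, and leaving out each replicate could not be run for the same reason. With no filter on low values and with a minimum FPKM of 5, still 0 tested genes and 0 of the set passed the adjusted threshold. The median log2 ratio of the set, 0.04 as deposited, was 0.076 after quantile normalization and 0.18 after equal sums. It was 0.050 with the minimum of 50 set in mir163, 0.046 with it set on the mean, 0.072 with no minimum beyond 1, and 0.028 for cytosolic genes alone. For small subunit genes, 0.01 as deposited, it was 0.0030 after median-ratio scaling, 0.038 after quantile normalization and 0.14 after equal sums. With the minimum in mir163 or on the mean it was 0.0196, and with no minimum beyond 1 it was 0.048. It changed sign to -0.00032 at a minimum of 100 in WT and to -0.0020 for cytosolic genes alone. For large subunit genes, 0.07 as deposited, it was 0.064 after median-ratio scaling, 0.10 after quantile normalization, 0.20 after equal sums and 0.086 with no minimum. The count of genes higher in mir163, 78 as deposited, was 119 after equal sums and 136 of 203 with no minimum, and for cytosolic small subunit genes 16 became 30 after equal sums, a comparison added after seeing the data. Median levels of small subunit genes, 338 in mir163 and 328 in WT, were 361 in mir163 and 331 in WT at a minimum of 100, 211 in mir163 and 210.5 in WT with no minimum, and 329 in mir163 for cytosolic genes. Those of large subunit genes, 343 in mir163 and 338 in WT, were 397 in mir163 and 374 in WT, 166 in mir163 and 156 in WT, and 335 in mir163 and 337 in WT under the same alternatives. For genes added by a lower minimum, the subunit was read from the letter in the product name. Log2 ratios of the 20 genes named for level or ratio changed sign in 6 of 100 recomputations. The cause of these shifts was not tested beyond the alternatives' own construction. Depth is unknown and limits all values by an amount that cannot be given.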

Other observations

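The description words left out 126 further abundant nuclear genes with a ribosomal RefSeq note or product. Not all are ribosomal proteins, since AT1G30230 and AT2G18110 among them also stand in the list of elongation factor genes. Of the 126, 78 had a higher FPKM in mir163 and 48 a lower one. Their median log2 ratio was 0.03 and their median FPKM 306 in mir163 and 306 in WT. The 5 genes of L41, a peptide of 25 residues, had the lowest ratios as a family, and all 5 were lower in mir163, also after quantile normalization and equal sums. AT3G08520 had an FPKM of 1261 in mir163 and 2226 in WT, and AT2G40205 had 180 in mir163 and 1261 in WT, a log2 ratio of -2.81. AT1G56045 had 531 in mir163 and 668 in WT, AT3G11120 had 597 in mir163 and 713 in WT, and AT3G56020 had 155 in mir163 and 189 in WT. The family's lowest unadjusted p in the authors' deposited table was 0.123, and 0 of the 126 genes passed the adjusted threshold by Benjamini-Hochberg. Of 21 such genes with fewer than 300 coding bases, 4 were higher in mir163 and 17 lower, and without L41 the split was 4 to 12. The part of transcript length in these values was not tested.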
